A study of Mus musculus with 3 samples.

Results

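The genes described here are 10 of insulin and insulin-like growth factor (IGF) signalling: the ligand gene Igf1, the receptor genes Igf1r and Insr, the adaptor genes Irs1 and Irs2, and the genes of the binding proteins Igfbp2, Igfbp3, Igfbp4, Igfbp5 and Igfbpl1. They were taken by symbol from the 41388 Ensembl genes of each table, and each of the 10 matched 1 identifier. RNA sequencing was done on 3 pools of dorsal root ganglion (DRG) cells of C57BL/6 mouse embryos at 12.5 days post coitum, with ganglia from lower thoracic to sacral levels. Cells were sorted for EGFP expressed from Ret, a receptor tyrosine kinase gene. The genotype is labelled Tg(Ret-EGFP)SJ/, in the form of a transgene, but the design description speaks of Ret knock-in heterozygotes, and the sources used here do not settle which it was. Library B came from 340 ganglia of 17 embryos (10 male and 7 female), library C from 300 ganglia of 15 embryos and library D from 60 ganglia of 3 embryos. All 3 libraries share genotype, age and treatment and form 1 group, so there is no control condition, and every embryo carried the reporter. Each library pools embryos, and spread between libraries is therefore spread between pools.

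Sequencing depth ran from 11666241 counts (library C) to 20966139 (library D), with 18072199 for B. No pair of libraries agreed within counting error (chi-square per degree of freedom of 133 to 318), so each was counted as 1 sample. All 6 neuron markers and all 6 markers of glia and Schwann cell precursors were present at 1 TPM (the usual length-scaled transcript abundance) or more in every library. The neuron markers summed to between 17576 and 29160 TPM, led by Tubb3 and Stmn2, and the glial markers to between 1246 and 2665 TPM. Markers of blood, sympathetic, mesenchymal and other cells were present too and are given beside the results, and every value below is an average over all cells of a pool. Fewer cells of a type and less RNA per cell cannot be told apart in these pools.

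IGF1 and IGF2 act through IGF1R, and insulin acts through INSR; both receptors are tyrosine kinases that phosphorylate the IRS adaptors. Phosphorylated IRS proteins recruit PI3K, which activates AKT, and AKT restrains FOXO transcription factors and GSK3 and stimulates mTOR. The secreted binding proteins hold IGFs outside the cell and can limit or prolong their action, and proteases release the IGFs again. In the nervous system this signalling is known for its part in neuron survival, growth of the soma and axon extension.

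Promoter sequences of 3 members are shown because these genes give the contrasts of level that follow: Igfbp5 was the most abundant member, Igfbp2 is its neighbour on the chromosome at a far lower level, and Igf1r was the most abundant receptor. Each sequence holds the 250 bases before the annotated start, 5′ to 3′ on the gene's strand, from RefSeq on GRCm38.p6. Capitals mark the GC box GGGCGG on either strand. The regions are chr1:72874866-72875115 (minus strand) for Igfbp5, chr1:72824230-72824479 (plus strand) for Igfbp2 and chr7:67952007-67952256 (plus strand) for Igf1r.
Igfbp5: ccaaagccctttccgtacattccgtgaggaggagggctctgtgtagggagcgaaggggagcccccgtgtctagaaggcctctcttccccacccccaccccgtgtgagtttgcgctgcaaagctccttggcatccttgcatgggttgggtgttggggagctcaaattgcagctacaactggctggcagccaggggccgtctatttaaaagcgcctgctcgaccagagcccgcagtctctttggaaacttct
Igfbp2: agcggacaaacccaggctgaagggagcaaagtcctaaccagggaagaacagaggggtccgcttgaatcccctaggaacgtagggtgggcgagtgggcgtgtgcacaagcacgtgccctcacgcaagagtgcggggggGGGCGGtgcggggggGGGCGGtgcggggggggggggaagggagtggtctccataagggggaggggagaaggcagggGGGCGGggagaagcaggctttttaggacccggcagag
Igf1r: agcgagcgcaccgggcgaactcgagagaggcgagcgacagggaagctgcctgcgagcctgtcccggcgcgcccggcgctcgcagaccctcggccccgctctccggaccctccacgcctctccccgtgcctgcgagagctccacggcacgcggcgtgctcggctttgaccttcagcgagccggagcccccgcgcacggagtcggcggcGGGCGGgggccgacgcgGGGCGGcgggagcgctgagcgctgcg
The Igf1r window had a GC content of 77.6%, above that of 97.7% of 32851 mouse promoter windows of this length, whose median was 52.4%. The Igfbp5 window stood at 58.8% GC and the Igfbp2 window at 67.2%. The GC box occurred 2 times in the Igf1r window, 3 times in the Igfbp2 window shown and not in that of Igfbp5. Of all windows 32.7% hold it. The other annotated Igfbp2 window, which is not shown, had 56.4% GC and no GC box. The search also covered the TATA box TATAAA, the CCAAT box CCAAT and the forkhead motif GTAAACA, on both strands, which 12.4%, 33.8% and 3.17% of all windows hold. None of these lies in the 3 windows shown. Of the 8 members with an entry, which have 9 windows because Igfbp2 has 2, TATAAA was in the Igfbp4 window only, and GTAAACA was in none.

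The set spanned from Igfbp5 at 248 ± 304 TPM (SD, n = 3) down to Irs1 at 0.34 ± 0.42 TPM. Library D set several of these means: without it they were 71.9 TPM for Igfbp5, 6.69 TPM for Igf1r (15.6 with it), 1.18 TPM for Igfbp3 (1.95 with it) and 0.10 TPM for Irs1. TPM is the count per base of gene, scaled to the same total in each library, so it can be compared between genes. At 1 TPM or more in every library 8 of the 10 members were detected, against 28.7% of all 41388 genes. Irs1 was below 1 TPM in each library and Igfbpl1 in C only. By mean TPM the order was Igfbp5, Igf1r, Igfbp4, Igf1, Igfbp2, Irs2, Insr, Igfbp3, Igfbpl1 and Irs1. Neighbours in this order stood apart in the same direction in all 3 libraries, and by more than the SD of their log2 ratio, at 4 of 9 steps. These steps were Igfbp5 over Igf1r, Igf1 over Igfbp2, Insr over Igfbp3 and Igfbpl1 over Irs1. At the other 5 steps, among them Igf1r against Igfbp4 and Igfbp4 against Igf1, the neighbours did not differ beyond their spread.

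**Figure D1:**
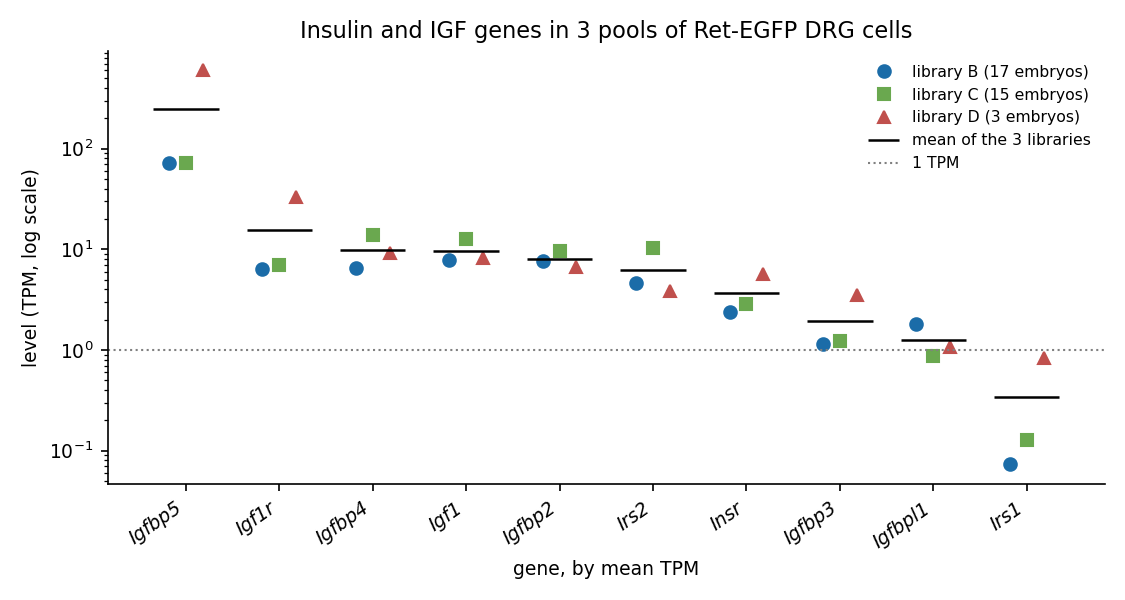
Level of each of the 10 genes in TPM (log scale) in libraries B, C and D, with the mean of the 3 as a bar and 1 TPM dotted. Igfbp5 is highest in every library, and in library D it reaches 599 TPM against 71.4 and 72.4 TPM in B and C.

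Igf1 encodes the growth factor IGF1 (ENSMUSG00000020053, chromosome 10, 87858265 to 87937042, GRCm38, as for all gene positions here). It stood at 7.86 TPM in B, 12.7 TPM in C and 8.19 TPM in D (mean 9.58 ± 2.70 TPM). On the TPM scale its level was among the steadiest of the set, with 1.62-fold between the highest and the lowest library. The counts behind it were 702, 754 and 625 in B, C and D. Macrophages and mesenchymal cells also make Igf1, so their markers are given beside it. Of 6 macrophage markers 3 were detected in every library, led by C1qb and Aif1, with a summed level of 36.4 TPM in B, 31.9 TPM in C and 26.5 TPM in D. Of 6 mesenchyme markers 5 were detected, led by Col1a2 and Col3a1, with 30.5, 24.3 and 97.6 TPM. Within the lists the order of libraries varied. Among macrophage markers C1qa (2.35, 3.21 and 1.12 TPM in B, C and D) and C1qb were lowest in D, and Aif1 lay between B and C. Csf1r (0.43, 0.31 and 2.39 TPM), Cx3cr1 (0.95, 0.36 and 1.98 TPM) and Ptprc were highest in D. Of the 4885 bases of Csf1r, 871 are shared with another gene. The part of these cells in the level of Igf1 was not tested.

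The receptor gene Igf1r (ENSMUSG00000005533, chromosome 7, 67952859 to 68226780) stood at 6.32 TPM in B, 7.06 TPM in C and 33.5 TPM in D. Insr, the insulin receptor gene (ENSMUSG00000005534, chromosome 8, 3150922 to 3279617), stood at 2.36, 2.84 and 5.74 TPM. Both genes were highest in D, as were 62.8% of all genes tested, and B and C lay close together. Igf1r exceeded Insr in 3 of 3 libraries, its TPM ratio on the log2 scale being 1.38 in B, 1.28 in C and 2.52 in D (mean 1.73 ± 0.69, SD, n = 3). The exact two-sided sign-flip test gave p = 0.25, the smallest that 3 libraries allow, and 0.3 after Benjamini-Hochberg adjustment over the 6 pairs compared.

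The counted gene models bear on this ratio. The deposited Igf1r model has 4489 exon bases, close to its coding length of 4107 in GENCODE M21, while all its M21 exons cover 16791. For Insr 9633 of 13746 M21 exon bases were counted. Reads on the 12302 and 4113 uncounted bases are not in these values. In counts the receptors were closer, at 256 and 205 in B, 190 and 164 in C and 1158 and 426 in D for Igf1r and Insr, and the log2 ratio without gene length was 0.66 ± 0.68. Igf1 over Igf1r gave log2 ratios of 0.31 in B, 0.84 in C and -2.02 in D (mean -0.29 ± 1.52), a difference smaller than its spread (exact sign-flip p = 1). Its sign rests on D, without which it was 0.57, and with CPM it was 0.85.

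The adaptor gene Irs2 (ENSMUSG00000038894, chromosome 8, 10986980 to 11008458) stood at 4.60 TPM in B, 10.3 TPM in C and 3.84 TPM in D. Irs1 (ENSMUSG00000055980, chromosome 1, 82233101 to 82291416) stood at 0.073 TPM in B (exact 95% interval 0.027 to 0.158, counting error only), 0.128 TPM in C and 0.82 TPM in D. IRS1 and IRS2 are the adaptors through which both receptors reach PI3K. Irs2 exceeded Irs1 in 3 of 3 libraries, with log2 ratios of 4.77, 5.52 and 2.09 on the log2(TPM + 0.1) scale, a mean of 4.13 ± 1.80 (exact sign-flip p = 0.25, adjusted 0.3 over the 6 pairs). The ratio was lowest in D, where Irs1 had 58 counts and Irs2 119, where B had 6 and 167, and C had 7 and 249. With a pseudocount of 1 the mean was 2.37, since Irs1 lies near the pseudocount. Of the 9144 Irs1 bases, 2822 also belong to Gm9747, on the opposite strand, which had 0 counts in every library. How reads shared by both genes were treated is not given in the sources used here. The counted Irs2 model has 4024 of 6323 M21 exon bases, and 162 of its bases lie in exons of 9530052E02Rik, which had at most 1 count in a library. Irs3 stayed below 1 TPM in each library, and Irs4 had no counts.

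Igfbp5 (ENSMUSG00000026185, chromosome 1, 72857932 to 72874884) encodes a binding protein that also attaches to extracellular matrix. It stood at 71.4 TPM in B, 72.4 TPM in C and 599 TPM in D, with 3866, 2607 and 27741 counts. B and C were 1.01-fold apart, and D was 8.34-fold above their mean. By mean TPM Igfbp5 lay above 94.3% of the 11896 genes detected in every library.

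The neighbouring gene Igfbp2 (ENSMUSG00000039323, chromosome 1, 72824503 to 72852474) encodes a binding protein of the developing nervous system. Igfbp2 and Igfbp5 lie tail to tail, 5457 bases apart with no annotated gene between them in the deposited tables. Igfbp2 stood at 7.62, 9.57 and 6.60 TPM in B, C and D, with 1.45-fold between the highest and the lowest library, the least of the 10 members. Igfbp5, in contrast, had 8.40-fold between its highest and lowest library.

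Igfbp4 (ENSMUSG00000017493, chromosome 11, 99041244 to 99054392), whose product is known mainly as an inhibitor of IGF action, stood at 6.48 TPM in B, 13.9 TPM in C and 9.25 TPM in D. Igfbp5 exceeded it in 3 of 3 libraries, with log2 ratios of 3.44, 2.37 and 6.00 (mean 3.94 ± 1.87, exact sign-flip p = 0.25, adjusted 0.3). Igfbp3 (ENSMUSG00000020427, chromosome 11, 7206086 to 7213923), the main carrier of IGFs in serum, stood at 1.13, 1.23 and 3.48 TPM. Igfbpl1 (ENSMUSG00000035551, chromosome 4, 45809468 to 45826923), a related secreted protein gene, stood at 1.81, 0.87 and 1.08 TPM, on only 53, 17 and 27 counts. Its exact 95% interval was 1.35 to 2.37 TPM in B and 0.71 to 1.57 in D, intervals that overlap; the difference itself was not tested. Igfbp2 exceeded Igfbpl1 by a log2 ratio of 2.61 ± 0.65 and Igfbp3 by 2.14 ± 1.08, each in 3 of 3 libraries (exact sign-flip p = 0.25 for both, adjusted 0.3).

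Over the 8 genes Igfbp1 to Igfbp7 and Igfbpl1, Igfbp5 held 79.0% of the summed TPM for B, 73.5% for C and 96.4% for D (mean 82.9 ± 12.0%, SD, n = 3). The other 7 genes together made 19.0 TPM in B, 26.1 TPM in C and 22.5 TPM in D. Their sum was lowest in B and highest in C, whereas Igfbp5 was far highest in D. Igfbp4 held 7.17, 14.1 and 1.49% and Igfbp2 8.44, 9.72 and 1.06%. Igfbp1, Igfbp6 and Igfbp7 were minor, at 0.19 ± 0.092, 0.11 ± 0.12 and 1.23 ± 0.71 TPM. Igfbp6 had no count in C, and 85 bases of the Igfbp7 model are shared with Polr2b on the opposite strand. Endothelium, a common site of Igfbp3, Igfbp4 and Igfbp7, had 1 of 6 markers (Esam, followed by Pecam1 in mean level) detected in every library, with a summed level of 15.1 TPM in B, 5.11 TPM in C and 5.01 TPM in D. None of 5 pericyte markers, led by Rgs5 and Anpep, was detected in every library, and their sum was between 1.58 and 4.38 TPM.

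**Figure D2:**
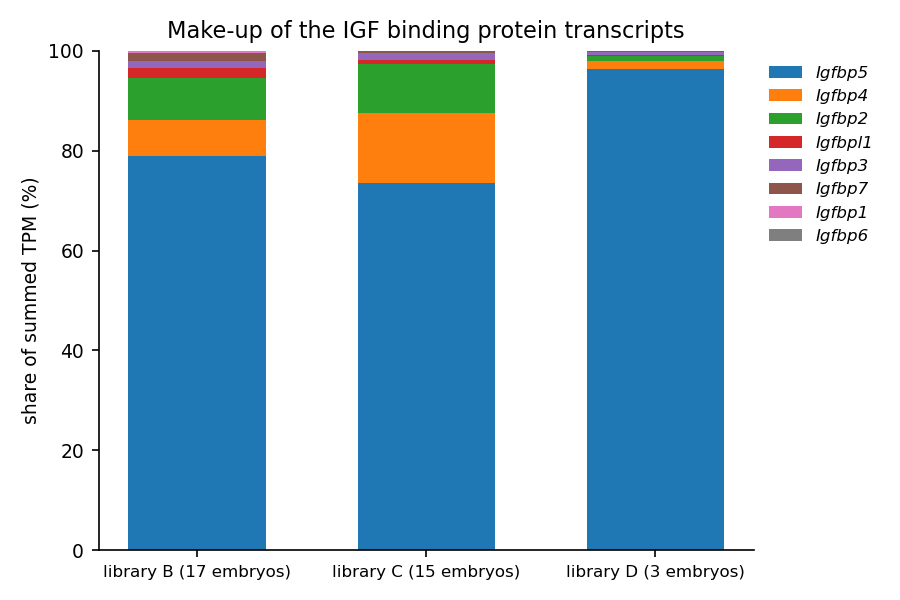
Share of each gene in the summed TPM of Igfbp1 to Igfbp7 and Igfbpl1 (%), stacked to 100, by library. Igfbp5 takes 79.0% in B, 73.5% in C and 96.4% in D, and Igfbp4 and Igfbp2 take most of the rest.

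Around these members, 52 further genes of the pathway were listed by role, of which 35 were detected in every library. Among ligands, Igf2 stood at 18.3 TPM in B, 8.42 TPM in C and 26.7 TPM in D; it exceeded Igf1 in B and D and lay below it in C. Of its 5723 bases 98 are shared with another gene. Ins1 and Ins2, the insulin genes, had no counts in any library, which allows up to 3 counts or 0.166, 0.257 and 0.143 CPM in B, C and D. Igf2r, the receptor that clears IGF2, stood at 4.34, 2.35 and 17.5 TPM. It was highest in D like Igf1r, Insr and 62.8% of all genes tested. Insrr, a receptor gene of the same family, stayed below 1 TPM in each library.

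Pappa2 encodes a protease that cleaves IGFBP5 and IGFBP3, and it stood at 13.1, 11.0 and 34.1 TPM. Pappa, whose product cleaves IGFBP4, stood at only 0.18 ± 0.022 TPM. Stc1, the gene of a pappalysin inhibitor, stood at 1.21, 0.98 and 4.68 TPM. Of the Pappa2 model, 310 of 10294 bases lie in exons of another gene. Igfals, which encodes the third part of the serum IGF complex, was under 1 TPM in B and C and at 1.23 TPM in D.

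Downstream of the receptors, 7 of 9 adaptors, 9 of 10 PI3K and AKT genes, 5 of 6 brakes, 7 of 7 mTOR branch genes and 4 of 6 FOXO and GSK3 genes were detected. Grb10, which encodes an adaptor that inhibits both receptors, stood at 49.1 TPM in B, 41.2 TPM in C and 735 TPM in D. Grb2, the adaptor gene of the RAS branch, stood at 91.8, 61.6 and 117 TPM. Gsk3b followed the pattern of Grb10, with 79.0, 50.7 and 520.2 TPM. Akt1 was steady at 54.8 ± 3.28 TPM, and Pik3r3, a regulatory subunit gene of PI3K, stood at 11.4, 10.6 and 54.2 TPM. In C other genes stood out: Rheb, the activator of mTOR, at 177 TPM against 16.9 in B and 25.7 in D, Eif4ebp1, a target of mTOR, at 209 TPM against 78.9 and 54.2, and Ptpn1, a phosphatase gene of the insulin receptor, at 76.4 TPM against 22.1 and 27.7. Ptprf, another receptor phosphatase gene, stood at 48.0, 33.2 and 83.2 TPM, and Gsk3a, 542 of whose 2260 bases are shared with another gene, at 7.11, 17.5 and 8.90 TPM.

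**Figure D3:**
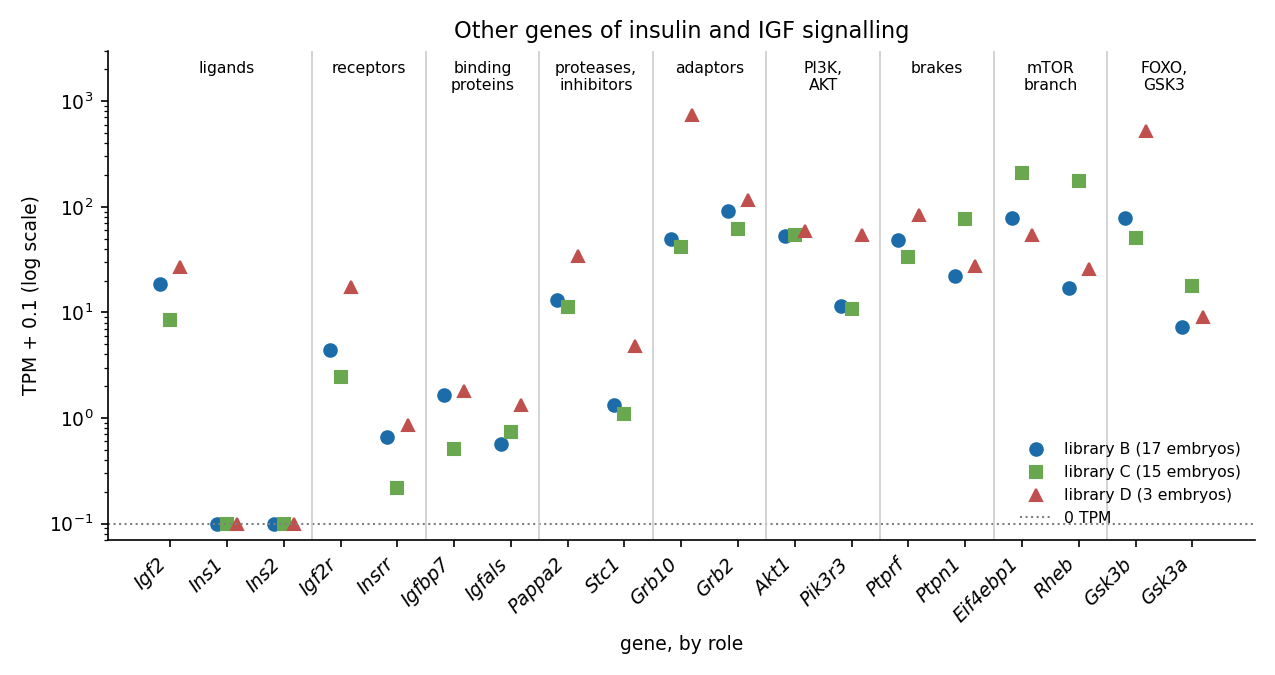
Level (TPM + 0.1, log scale) of other pathway genes in libraries B, C and D: every ligand and receptor of the list, and the 2 genes with the highest mean of each other role. Ins1 and Ins2 lie at 0, Grb10 and Gsk3b are far higher in D, and Rheb is far higher in C.

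The pool of 3 embryos (D) was compared with the larger pools B and C by edgeR's quasi-likelihood test. Spread within a side can come only from B and C, and D is taken to vary as they do. Every call below therefore sets 1 library against the others, and pool size cannot be told apart from anything else particular to that library. All 10 members were tested, none passed at adjusted p 0.05, and neither did any other of 15727 genes, a background of 0%. At an unadjusted p under 0.05 there were 3046 genes (19.4%): 1754 higher in D (11.2%) and 1292 lower (8.22%). Of the members 3 had such a p, all on the higher side: Igfbp5, Igf1r and Irs1. The log2 ratio of D over B and C was 2.36 ± 0.36 (approximate SE) for Igfbp5 (edgeR adjusted p = 0.167), 1.62 ± 0.46 for Igf1r (adjusted p = 0.200) and 2.34 ± 0.93 for Irs1 (adjusted p = 0.249). On the lower side Irs2 had -1.67 ± 0.73, Igfbp2 -1.09 ± 0.62, Igf1 -1.04 ± 0.56, Igfbpl1 -1.01 ± 0.88 and Igfbp4 -0.86 ± 0.66, with edgeR adjusted p-values from 0.274 to 0.529. Igfbp3 had 0.86 ± 0.71 and Insr 0.44 ± 0.51. The median over the 10 members was -0.21, against -0.02 over all genes tested.

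Other settings called some members. DESeq2 called Igfbp5 alone of the 7 members to which it gave an adjusted p (adjusted p = 0.0051), against 688 of 11680 genes (5.89%). Without the filter on low counts edgeR called Igfbp5 and Igf1r (adjusted p = 1.4e-05 and 0.049), against 1534 of 23553 genes (6.51%). Over all settings the adjusted p of Igfbp5 ranged from 1.4e-05 to 0.232 and that of Igf1r from 0.049 to 0.404. Their log2 ratios stayed above 0 in each of the 9 settings, from 1.73 to 3.06 for Igfbp5 and from 1.08 to 2.31 for Igf1r. A constant sign over the 9 settings was not particular to them. It also held for Igf1, Irs1, Irs2, Igfbp3, Igfbp4 and Igfbpl1.

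On the TPM scale D lay above both other libraries for 5 members (Igf1r, Insr, Irs1, Igfbp3 and Igfbp5), a share below the 62.8% of all genes tested. D lay below both for 2 members, Irs2 and Igfbp2, against 19% of genes tested. Most genes had a higher TPM in D: the median log2 ratio of TPM over all genes tested was 0.66, while with edgeR's TMM scaling it was -0.02. Against that shift of 0.66, the TPM ratio of D was 3.06 for Igfbp5, 2.31 for Igf1r, 1.11 for Insr, -0.32 for Igf1 and -0.94 for Irs2.

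The ratio of D moved with gene length. GC content was taken into account only together with length, so its own trend was not measured. The median log2 ratio of D was -0.74 in the tenth of genes with the shortest counted length, 56 to 1082 bases, and 0.68 in the longest, from 8255 bases. Igfbp2 has 1847 bases and a transcript GC of 62.1%, the shortest and most GC-rich of the members; Igf1 has 9904 bases and 38.0%, the longest and least GC-rich. Igf1 thus stood at -1.04 where genes of its length had a median of 0.68. With the trend in length removed, Insr moved from 0.44 to -0.28, and with length and GC removed it was -0.43 and Igfbp2 moved from -1.09 to 0.48. The sign of the ratio of Insr and of Igfbp2 thus depends on whether these trends are removed. With length and GC removed, Igfbp5 stood at 1.73 and Igf1r at 1.08. The trend used the counted length, which for Igf1r is 4489 bases where its M21 exons cover 16791. How far that shortened model affects the corrected ratio of Igf1r was not tested.

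**Figure D4:**
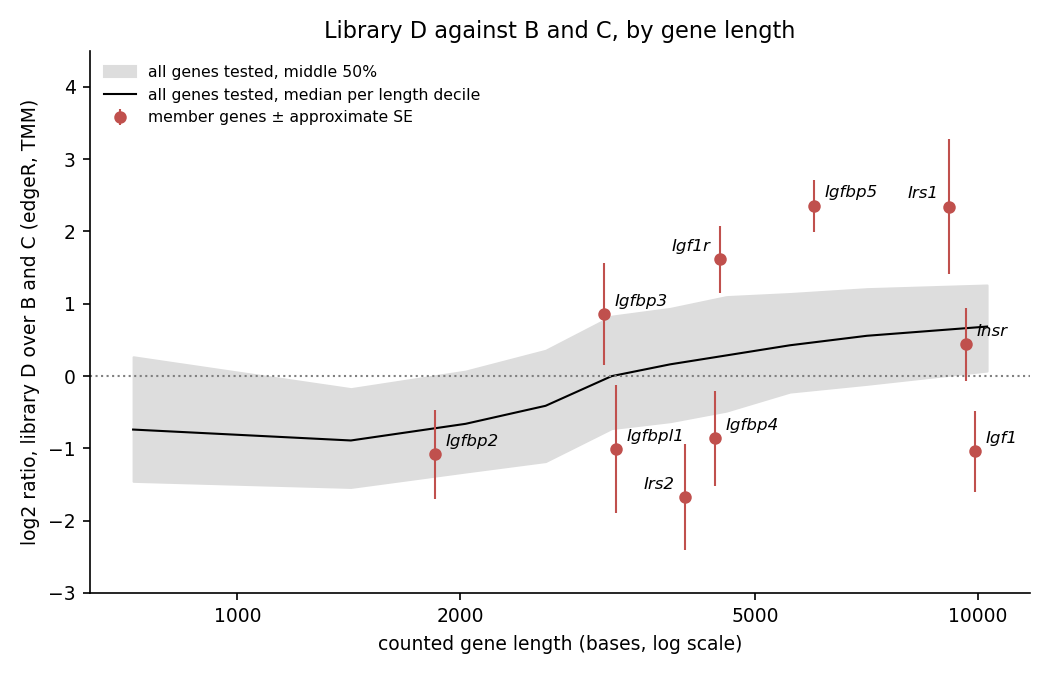
Log2 ratio of library D over B and C (edgeR, TMM) against counted gene length (bases, log scale) for the 10 members with their approximate SE; the line and grey band give the median and middle 50% of all genes tested in each length decile. Igfbp5, Igf1r and Irs1 lie clearly above the band, Igfbp3 at its upper edge, and Igf1, Irs2, Igfbp4 and Igfbpl1 below it.

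Markers of other cells also differed in D. The mesenchyme sum was 97.6 TPM in D against 30.5 and 24.3 TPM in B and C, carried by Col1a2 at 53.0 TPM and Col3a1 at 26.2 TPM. In the larger pools Col1a2 reached at most 11.2 TPM and Col3a1 at most 6.08 TPM. In the same list Col1a1 stood at 2.87, 2.36 and 2.08 TPM in B, C and D and Dcn at 3.72, 2.56 and 1.12 TPM, both lowest in D. In the glial list Fabp7 had the highest mean, and it stood at 2017 TPM in D between 2487 in B and 1088 in C. Fabp7 set the sum, which was 2614 TPM in D against 2665 and 1246. Erbb3 (14.2, 9.06 and 163 TPM in B, C and D), Sox10 and Foxd3 were each highest in D. The neuron sum was lowest in D, at 17576 TPM against 29160 and 20831, and it was set by Tubb3 and Stmn2. In the same list Pou4f1 was highest in D (217, 118 and 695 TPM), and Elavl4 (330, 208 and 333 TPM) and Isl1 (628, 526 and 620 TPM) were close in B and D. The sum of 5 erythroid markers, led by Hbb-y and Hba-x, was 2492, 1260 and 353 TPM, and that of 5 sympathetic and chromaffin markers, led by Chga and Dbh, was 277, 225 and 87.4 TPM, both lowest in D. Of 4 skeletal muscle markers, led by Actc1 and Myog, none was detected in every library (sums of 11.0, 0.399 and 11.0 TPM). Of 4 spinal cord progenitor markers, led by Pax6 and Nkx6-1, none was detected in every library. Pax6 stood at 0.028, 0.029 and 0.17 TPM in B, C and D, on 3, 2 and 15 counts. Nkx6-1 had 1 count, in D, and Olig2 and Nkx2-2 were at 0 in each library. The part of any of these cells in the values of Igfbp5 and Igf1r in D was not tested.

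**Figure D5:**
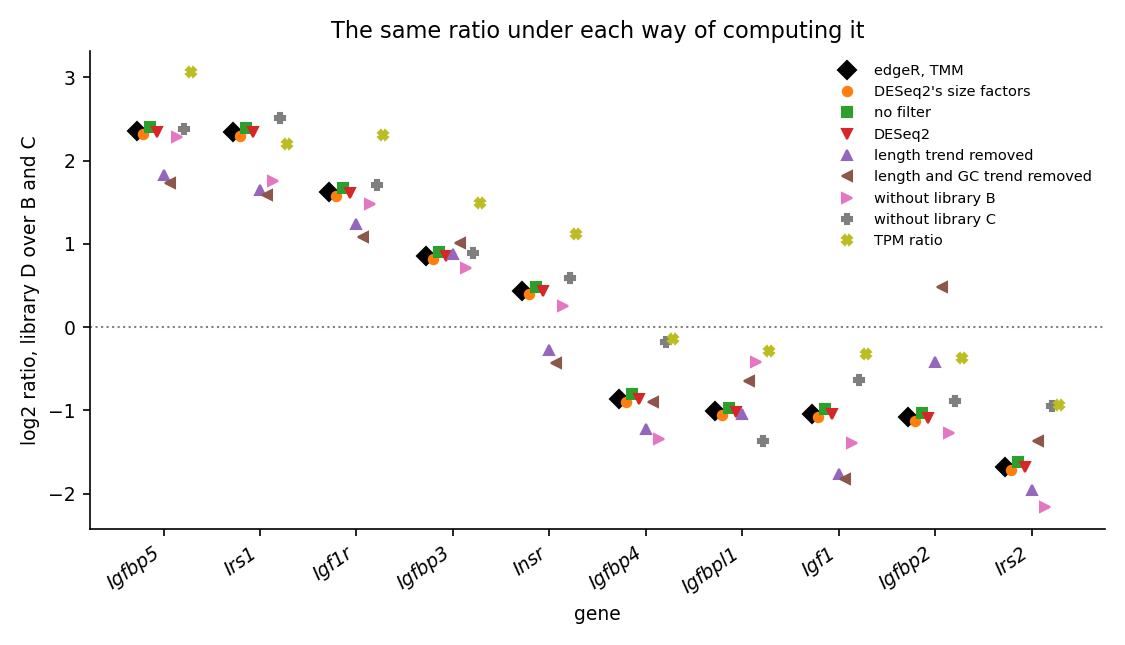
Log2 ratio of library D over B and C for each member under 9 ways of computing it, by symbol. All members but Insr and Igfbp2 keep to one side of 0, among them Igfbp5 (1.73 to 3.06) and Igf1r (1.08 to 2.31). Insr and Igfbp2 cross it once length or length and GC are removed.

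Of the 52 other pathway genes 46 were tested, and none passed edgeR's test. Their log2 ratio was above 0 for 30 and below 0 for 16, against 7782 and 7945 over all genes tested. Their median log2 ratio was 0.44, against -0.02 over all genes tested, and with the trend in length removed it was -0.06 against -0.07. The highest edgeR log2 ratios among them were 3.33 ± 0.35 for Grb10, 2.31 ± 0.39 for Gsk3b and 2.04 ± 0.47 for Gab1. Gab1 encodes a docking protein of receptor tyrosine kinases. The lowest was -2.65 ± 1.34 for Rheb, whose TPM in D lay between those in B and C. The biological coefficient of variation (an estimate of SD over mean beyond counting error) was computed by edgeR across the 3 libraries taken as 1 group. edgeR draws each gene's estimate toward those of genes of similar abundance. The values and their ranks are therefore not those of the plain SD over mean of the 3 libraries. This estimate was 0.62 for Igfbp5, higher than for 94.1% of genes, 0.57 for Irs2 and 0.55 for Igf1r. Igfbp2 had 0.51 (higher than for 67.3% of genes) and Igf1 0.50 (higher than for 58.7%), though both were steady in TPM. Igfbp3 had 0.47 (higher than for 29.2% of genes), the lowest of the 9 members estimated. Irs1 was left out by the filter on low counts.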

How the data were processed

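For each library the authors deposited read counts per Ensembl gene, their CPM and RPKM, and the gene's length in bases. Per the submitters' processing notes, Subread, featureCounts 1.4.5 and GRCm38.p2 were used; for their roles, the annotation release and the strand setting: not given in the sources used here. Per the labels' protocols, cDNA came from a low-input kit; strand was taken as not marked. In the deposited tables CPM equals count over file total and RPKM equals CPM per kilobase. Only the counts and lengths were used further; 40254 identifiers had a symbol.

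TPM was computed from counts and lengths, with a pseudocount of 0.1 for log2 ratios between members; these were tested by an exact two-sided sign-flip test. Library D was compared with edgeR 4.0.16 (TMM, filterByExpr, quasi-likelihood test, Benjamini-Hochberg over all genes, threshold 0.05), after a test on simulated data. SEs are the ratio divided by the root of F. DESeq2 1.42.0 was an alternative; trends were fitted with mgcv 1.9.3 and GC from the longest GENCODE M21 transcript. TPM limits of 0.5 and 5, a pseudocount of 1, CPM, no filter and each library left out were also tried. Intervals are exact binomial at 95% and cover counting error only.

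Members and lists were chosen with earlier results of these data known. All members, every ligand and receptor of the pathway list, and in each other role or marker list the 2 genes highest in mean TPM, are named; Gab1, Pappa, Irs3, Irs4, Olig2, Nkx2-2, other markers and the minor Igfbp genes were named after their values were seen. A glial marker that this rule covers is not reported here. The p-values for D take their spread from B and C only, and the spread of D itself was not measured. The sign-flip p-values rest on the 3 libraries. Some of the spread between pools may be technical.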

Additional observations from a re-analysis of the deposited data

How the results depend on the processing

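Alternatives that removed a trend in length and GC, used a TPM ratio for D, or varied the share of Igfbp5 and the order of members were chosen after seeing the data. Of 169 alternative values, 149 kept their direction and side of the threshold, or stayed within their tolerance. For the means of members and the share of Igfbp5 with a library left out, the tolerance was the SD over the 3 libraries. Leaving out 1 of 3 libraries cannot move a mean that far, so these values were bound to be counted as kept. Without D, for example, the mean of Igfbp5 fell from 248 to 71.9 TPM and was still counted as kept. A pair ratio with 1 sign in all 3 libraries was likewise bound to keep that sign with a library left out. Members detected, 8 at 1 TPM, were 5 at 5 TPM, and from 8 to 9 with a library left out. Igf1 over Igf1r turned from -0.29 to 0.85 with CPM, which leaves out gene length, and ranged from -0.85 to 0.57 with a library left out, positive only without D. For library D, where edgeR with TMM called 0, DESeq2 called 688 genes, 1 member and 3 other pathway genes. Dropping the filter gave 1534 genes, 2 members and 7 other pathway genes. Size factors of DESeq2 in edgeR gave 8 genes and 1 other pathway gene, and removing the length trend gave 6 genes. For these counts the cause was not tested. The ratio of D turned to -0.28 for Insr with the length trend removed and to -0.43 with length and GC removed, and to 0.48 for Igfbp2 with length and GC removed. The order of members by mean TPM kept 5 of 10 genes at their rank with CPM and 4 of 10 without D. Without B or C the comparison of D is 1 library against 1, so only values were given. No paired analysis was possible because the 3 libraries form 1 group. At these depths Irs1, with 6 to 58 counts, and Igfbpl1, with 17 to 53, are the least certain.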
